A study of Mus musculus with 8 samples.

Results

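Retinoic acid synthesis and response genes were described in RNA-seq of mouse colonic mucosa during colitis induced by dextran sulfate sodium (DSS), a detergent-like polymer that injures the colonic epithelium when drunk in water. The set held 9 genes of the 17353 in the deposited tables, taken by symbol: the retinaldehyde dehydrogenases Aldh1a1, Aldh1a2 and Aldh1a3, the retinoid carrier Rbp2, the retinol receptor Stra6, the retinal reductase Dhrs3, the retinoic acid hydroxylase Cyp26b1 and the nuclear receptors Rara and Rarb. Their gene IDs in the tables were 11668, 19378, 56847, 19660, 20897, 20148, 232174, 19401 and 218772 in that order. Libraries came from 8 male, wild-type C57BL/6J mice sampled on day 7, with 2 animals in each of 4 groups. Control mice had no DSS and a saline enema. The DSS model mice drank 3% DSS and had a saline enema. The mesalazine mice were DSS mice given 50 mg/kg of mesalazine, an aminosalicylate used in ulcerative colitis, and the Kuiyangling mice were DSS mice given 10 g/kg of Kuiyangling, a herbal preparation. Each enema was 0.2 ml. With 2 animals a group, p-values measured only the spread between these animals.

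Retinol, the circulating form of vitamin A, is oxidised to retinaldehyde in a reversible step and then, irreversibly, to retinoic acid by the dehydrogenases of the Aldh1a family. Retinoic acid enters the nucleus and acts through retinoic acid receptors paired with retinoid X receptors on repeated hexamers in DNA, and enzymes of the Cyp26 family break it down. In the gut, epithelial cells, stromal cells and dendritic cells make retinoic acid, which is known for inducing gut-homing receptors on lymphocytes and for shaping regulatory T cells and mucosal IgA.

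The upstream sequences of 3 genes are shown because they hold hexamers of the kind that nuclear receptors bind, in a receptor gene known as a retinoic acid target, in the retinoid carrier and in the most abundant dehydrogenase. They are not the only ones: a window of Rara, not shown, held 4 such hexamers. RefSeq sequences on GRCm38.p6 matched 8 of the 9 genes, with 17 start sites, and no sequence was shown for Aldh1a3. Each run is the 160 bases before a start site, read 5′ to 3′ on the gene's strand. Capitals mark the hexamer AGGTCA or a variant of it (the letters AGTTCA, then also GGGTCA, and last GGTTCA), or the reverse complement of any of these 4. The Rarb run is chr14:16575477-16575636 on the minus strand, the Rbp2 run is chr9:98490377-98490536 on the plus strand, and the Aldh1a1 run is chr19:20601808-20601967 on the plus strand, before the downstream of its 2 start sites.
Rarb: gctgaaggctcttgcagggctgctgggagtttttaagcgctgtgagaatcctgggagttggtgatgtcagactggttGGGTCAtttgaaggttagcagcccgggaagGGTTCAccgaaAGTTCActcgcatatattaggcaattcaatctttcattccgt
Rbp2: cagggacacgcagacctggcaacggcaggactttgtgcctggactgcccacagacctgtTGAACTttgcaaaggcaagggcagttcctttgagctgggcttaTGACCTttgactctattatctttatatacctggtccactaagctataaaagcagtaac
Aldh1a1: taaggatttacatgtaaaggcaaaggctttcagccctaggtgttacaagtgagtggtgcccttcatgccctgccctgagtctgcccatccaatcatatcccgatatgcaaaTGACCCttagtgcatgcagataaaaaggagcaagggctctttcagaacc
In the Rarb run, a hexamer GGTTCA was followed by the variant AGTTCA on the same strand, with 5 bases between them, from base -53 to base -37 before the start. That spacing (any pair of the 4 hexamers, repeated in the same direction 5 bases apart, on either strand) was found in 29 of 32851 RefSeq windows of 250 bases, or 0.0883%, and among the 17 windows of the retinoid genes it was found only in that of Rarb. The hexamers of the Rbp2 and Aldh1a1 runs were common by comparison, since 38.6% of all windows held at least 1 of the 4. A match is a description of the letters and not evidence of binding.

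The libraries held 15560946 to 17843715 counts. Levels are given as CPM (counts scaled to a common library total) with TMM, a correction for library composition, and as FPKM, which divides by gene length and is used wherever genes are compared with each other. Of the 9 genes, 5 had enough counts for the test (Aldh1a1, Aldh1a3, Rbp2, Rara and Dhrs3), and Aldh1a3 passed that filter through the DSS-treated groups, its control level being near the limit. The test was edgeR's quasi-likelihood F test over 13381 genes with Benjamini-Hochberg adjustment, and a gene was called at an adjusted p under 0.05. Absorptive colonocyte markers were all detected. Markers of small-intestinal enterocytes were all detected too, so detection cannot tell these tissues apart. Libraries of the same group also differed, and some of these differences moved with the groups. Hoxb13, a gene of the most distal colon, was 19.9 and 175 CPM in the controls, 12.9 and 2.98 in the DSS model, 0.212 and 0.642 with mesalazine and 5.88 and 23.2 with Kuiyangling, so both mesalazine mice were below all others and both controls were above both DSS model mice. Across genes, the rank correlation of a library's deviation with gene length was 0.44 and 0.27 in controls, -0.096 and -0.43 in the DSS model, -0.53 and 0.28 with mesalazine and -0.020 and 0.39 with Kuiyangling, and its part in the results was not tested beyond the length-corrected values given below. Control 2 and mesalazine 1 had the lowest mean rank correlations with the other libraries (0.945 and 0.940, against 0.963 to 0.974). Values without single libraries are therefore given where they change a call.

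Aldh1a3 rose with DSS. It encodes a dehydrogenase that makes retinoic acid from retinaldehyde. Its level was 0.396 and 0.617 CPM in the control mice and 5.98 and 7.36 CPM in the DSS model mice. It was 1.84 and 2.74 CPM with mesalazine and 5.82 and 4.72 CPM with Kuiyangling. All 6 DSS-treated mice were above both controls. In CPM no 2 groups overlapped, and the order from lowest to highest was control, mesalazine, Kuiyangling and DSS model. In FPKM, Kuiyangling 1 (1.73) was above DSS model 1 (1.65), so the Kuiyangling and DSS model groups overlapped on that scale. These levels rest on 8 and 10 reads in the controls and 26 to 111 reads in the other libraries.

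Against control, Aldh1a3 was higher in the DSS model by 3.71 on the log2 scale (SE 0.48), with an edgeR adjusted p of 0.0176. That is a 13.1-fold difference between 0.506 ± 0.156 and 6.67 ± 0.979 CPM (SD, n = 2 in each group). It was the only 1 of the 5 tested genes called, where 0.247% of all tested genes were called (0.194% higher and 0.0523% lower). Groups without overlap were common, at 53.4% of all genes (27.1% higher and 26.3% lower), and 14.8% of genes had an unadjusted p under 0.05. The call was lost without control 2, at a log2 change of 4.05, and without DSS model 2, at 3.56. The size of the change held: leaving out 1 library gave 3.41 to 4.05. With the gene length correction the edgeR adjusted p was 0.0179 at a log2 change of 3.76.

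Aldh1a3 was also higher than control with Kuiyangling, by 3.38 on the log2 scale (SE 0.48, edgeR adjusted p = 0.0313), a comparison that shares its control mice with the one above. The background there was 0.239% of genes called (0.187% higher and 0.0523% lower), with 49.1% of genes not overlapping between the groups (25.9% higher and 23.2% lower) and 10.3% at an unadjusted p under 0.05. That call was lost without control 2, without Kuiyangling 1 or 2, and without DSS model 1 or 2, which lie outside the comparison. Leaving out 1 library gave log2 changes of 3.07 to 3.71. With mesalazine the difference from control was 2.18 (SE 0.48), and its edgeR adjusted p of 0.0781 missed the threshold. In that comparison 0.673% of genes were called (0.433% higher and 0.239% lower) and none of the 5 tested, though DESeq2 called Aldh1a3 (adjusted p = 0.00767) and so did edgeR without mesalazine 2 (0.0401), and 2 of the 5 had an unadjusted p under 0.05, as had 20.0% of all genes. Groups did not overlap for 45.7% of genes (23.6% higher and 22.1% lower).

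Against the DSS model, Aldh1a3 did not pass the test with either treatment. The log2 difference was -0.34 (SE 0.40, edgeR adjusted p = 0.996) with Kuiyangling. With mesalazine it was -1.53 (SE 0.42), with an unadjusted p of 0.00458 and an edgeR adjusted p of 0.523. edgeR called 0 of the 13381 genes in each of these comparisons, a percentage of 0, while DESeq2 called 13 and 91. An unadjusted p under 0.05 was found for 3.56% of genes with Kuiyangling and for none of the 5 retinoid genes tested, and for 5.49% of genes with mesalazine and 2 of the 5, Aldh1a1 and Aldh1a3. Kuiyangling and mesalazine differed in Aldh1a3 by 1.19 (SE 0.42, unadjusted p = 0.0176, edgeR adjusted p = 0.999), where again 0 of all genes were called by edgeR or DESeq2, 1.90% had an unadjusted p under 0.05 and 22.1% did not overlap (10.6% higher and 11.6% lower).

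**Figure D1:**
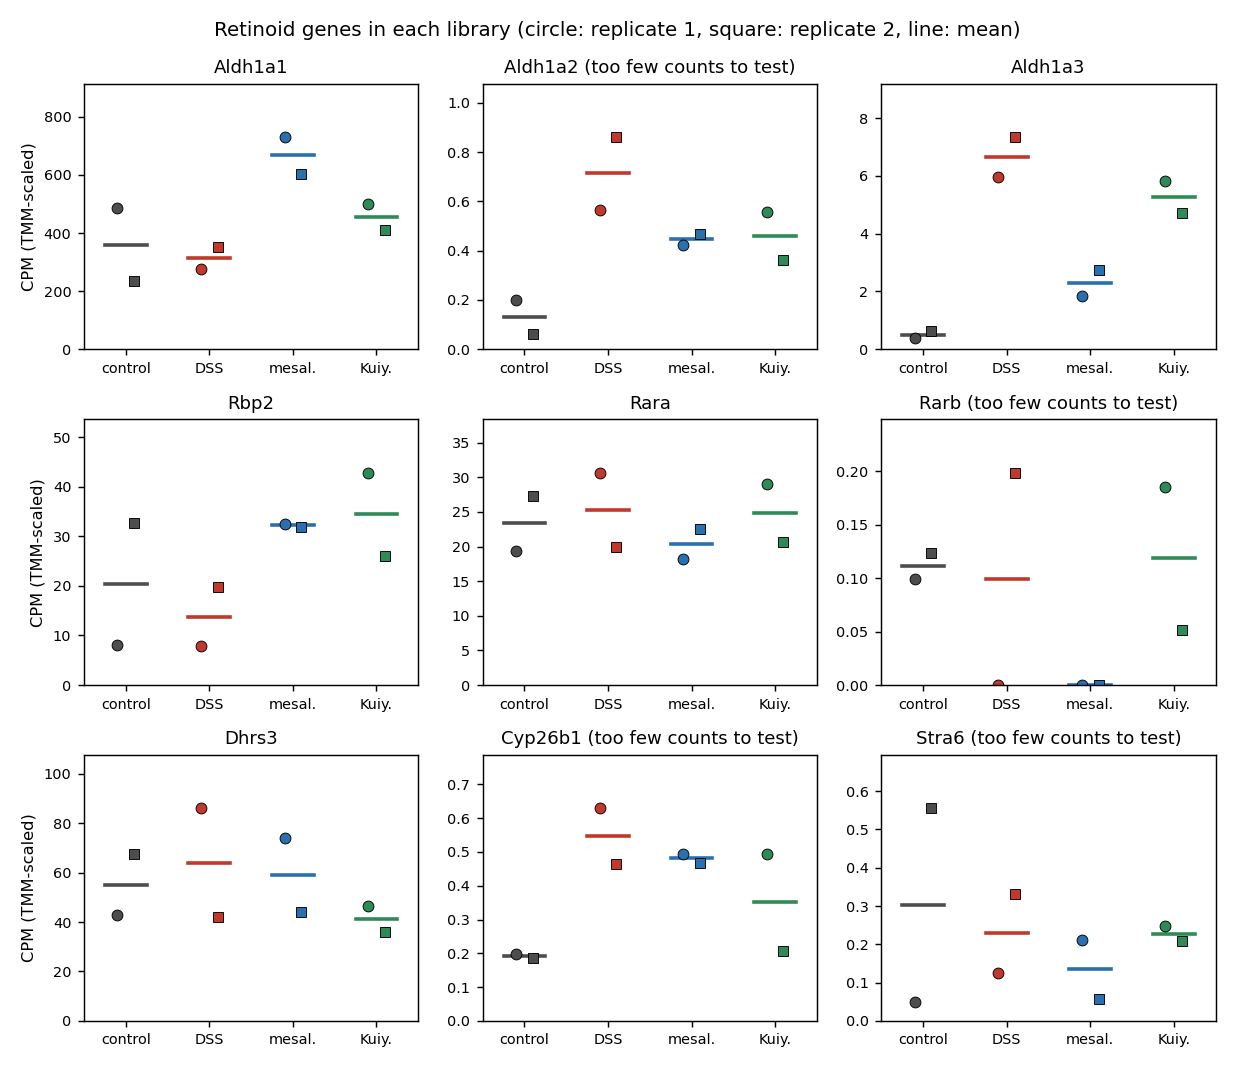
TMM-scaled CPM of the 9 retinoid genes in each of the 8 libraries, with 1 panel per gene, a circle for replicate 1, a square for replicate 2 and a line at the group mean, each panel on its own axis. Aldh1a3 separates the groups, from 0.396 CPM in a control to 7.36 CPM in a DSS model mouse, while Rara and Dhrs3 overlap in every group.

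The sums of fibroblast and neutrophil markers also varied between libraries, but not in the group order of Aldh1a3. The 10 fibroblast markers, led by collagens, summed to 13.3 to 38.3 CPM in the controls, 90.3 to 139.9 in the DSS model, 95.2 to 168 with mesalazine and 181 to 234 with Kuiyangling, with none at 0 except Mfap5 in mesalazine 2. The 9 neutrophil markers, most of whose sum was Ly6g, ran from 11.3 to 139 CPM in controls, 177 to 254 in the DSS model, 128 to 875 with mesalazine and 141 to 212 with Kuiyangling, and the controls were the only group with S100a9, Retnlg and Mmp8 at 0 in both animals. The sum hides the other markers. Of the 7 tested, 6 were below the DSS model with mesalazine (median log2 difference -1.13) and 6 with Kuiyangling (-2.44), none called. Ly6g was the 1 above it, at 1.66 and 0.13. All 7 were above control in the DSS model. Their part in the Aldh1a3 result was not tested. Markers of squamous epithelium, which lines the anal canal, were near 0 throughout: the 6 of 9 in the table summed to at most 1.87 CPM in any library, with Krt4 at 0 in all but control 1. In bulk tissue, fewer cells of a type and less RNA per cell cannot be told apart.

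Aldh1a1 was by far the most abundant of the 3 dehydrogenases in every library, and it was not called in any comparison. It is known as a retinaldehyde dehydrogenase of the intestinal epithelium in the mouse. Its level was 486 and 235 CPM in control mice, 278 and 353 in the DSS model, 732 and 604 with mesalazine and 501 and 412 with Kuiyangling. The mesalazine mice were above all others, the Kuiyangling mice were above the DSS model mice, and the controls spanned both, differing from each other 2.07-fold. Against the DSS model, mesalazine mice were 1.08 higher on the log2 scale (SE 0.37, unadjusted p = 0.0151, edgeR adjusted p = 0.669). With Kuiyangling the difference was 0.53 (SE 0.37, edgeR adjusted p = 0.996), and the DSS model differed from control by -0.19 (SE 0.37, edgeR adjusted p = 0.806), a value that turned to 0.42 without control 1. Libraries without overlap were ordinary here: 27.7% of all genes did not overlap between mesalazine and the DSS model (14.0% higher and 13.8% lower), and 43.0% between Kuiyangling and the DSS model (21.9% higher and 21.1% lower).

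Hoxb13 was lowest where Aldh1a1 was highest, in mesalazine 1 and 2 (0.212 and 0.642 CPM of Hoxb13), and highest in control 2, where Aldh1a1 was lowest. The other libraries did not follow that order: control 1 and Kuiyangling 2 had more Hoxb13 (19.9 and 23.2 CPM) than the DSS model mice (12.9 and 2.98) and also more Aldh1a1. Its part in the Aldh1a1 values was not tested. The paralog Aldh1a7, whose reads may be hard to tell from those of Aldh1a1 (how shared reads were counted is not given in the sources used here), had a mean of 16.1 to 20.7 CPM over the groups and a log2 change of -0.36 with DSS (SE 0.29, edgeR adjusted p = 0.547).

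Aldh1a2, the dehydrogenase of stromal and dendritic cells, had only 1 to 13 reads a library and was not tested. Its 2 controls had 4 and 1 reads, the DSS model mice 9 and 13, the mesalazine mice 6 and 8 and the Kuiyangling mice 9 and 7. All 6 DSS-treated mice were above both controls, at 0.363 to 0.862 CPM against 0.0617 and 0.198. Of all tested genes, 27.1% were higher than control without overlap in the DSS model, 25.9% with Kuiyangling and 23.6% with mesalazine. The summed reads gave a DSS model to control ratio of 5.17 (95% exact counting interval 1.91 to 17.5), a Kuiyangling to control ratio of 3.29 (1.15 to 11.5) and a mesalazine to control ratio of 3.26 (1.11 to 11.6). These intervals cover counting error only and not the spread between animals. The 9 dendritic cell markers summed to 6.34 to 21.3 CPM in controls and 10.7 to 12.5 in the DSS model, and the sums of the fibroblast markers are given above. The part of both lists in the Aldh1a2 values was not tested.

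Per length, Aldh1a1 carried nearly all of the dehydrogenase RNA, and the Aldh1a3 share was larger in the DSS model and Kuiyangling mice than in the controls. The share in mesalazine 1 lay just below that of control 2. Aldh1a1 had an FPKM of 209.9 and 90.4 in controls and 99.6 and 131 in the DSS model. Aldh1a3 had a mean FPKM of 0.157 in controls, 1.87 in the DSS model, 0.646 with mesalazine and 1.62 with Kuiyangling. Aldh1a3 was 0.0627% and 0.202% of the summed FPKM of the 3 genes in controls, 1.63% and 1.58% in the DSS model, 0.193% and 0.348% with mesalazine and 0.885% and 0.874% with Kuiyangling. In level per length, Aldh1a1 exceeded Aldh1a3 by 1592 and 494 times in the control mice and by 60.4 and 62.3 times in the DSS model mice. So the 2 DSS model mice agreed closely in this ratio, while the 2 control mice did not.

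**Figure D2:**
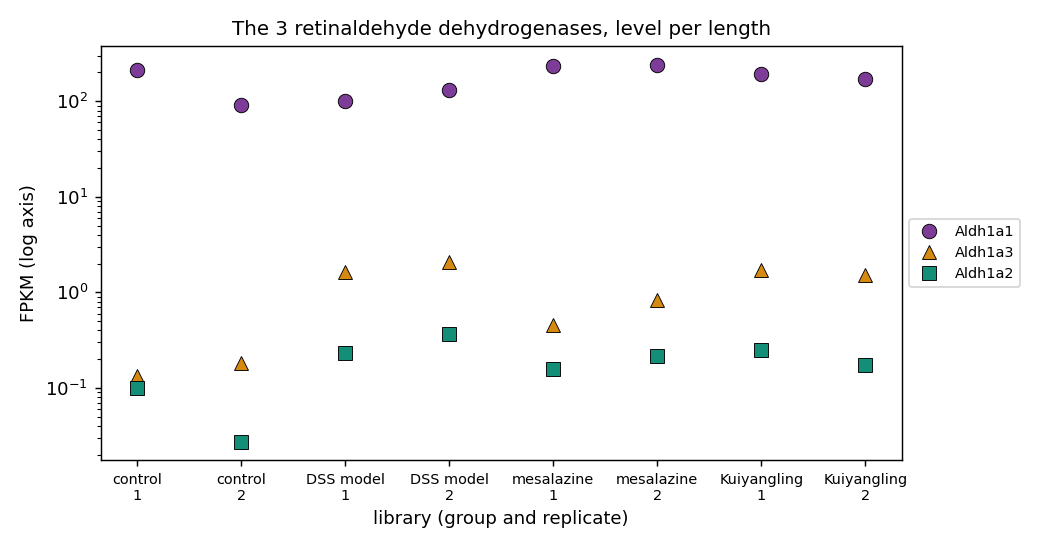
FPKM of the 3 retinaldehyde dehydrogenases on a log axis in each of the 8 libraries (circles Aldh1a1, triangles Aldh1a3, squares Aldh1a2). Aldh1a1 lies at 90.4 FPKM or more in each library, and Aldh1a3 moves from a mean of 0.157 in controls to 1.87 in the DSS model.

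Rbp2, the cellular carrier that delivers retinol and retinal to enzymes in enterocytes, was not called in any comparison. It had 8.03 and 32.8 CPM in control mice, 7.80 and 19.8 in the DSS model, 32.6 and 31.9 with mesalazine and 42.9 and 26.1 with Kuiyangling. All 4 treated mice were above both DSS model mice, and the controls differed 4.09-fold from each other, so that control 2 stood among the treated mice and control 1 among the DSS model mice. Of all tested genes, 21.9% were higher without overlap with Kuiyangling than in the DSS model, and 14.0% with mesalazine. The log2 difference from the DSS model was 1.32 with Kuiyangling (SE 0.61, unadjusted p = 0.0544, edgeR adjusted p = 0.996) and 1.22 with mesalazine (SE 0.61, unadjusted p = 0.0710, edgeR adjusted p = 0.926). The 2 differences share the DSS model mice. The DSS model differed from control by -0.56 (SE 0.60, edgeR adjusted p = 0.655), which turned to 0.78 without control 2.

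Genes of small-intestinal enterocytes, which express Rbp2 at high levels, moved with it in part. The 8 such markers summed to 626 to 861 CPM in controls, 747 to 748 in the DSS model, 998 to 1929 with mesalazine and 965 to 1206 with Kuiyangling, and none was at 0. Mep1a had the highest mean of them in every group: 444 CPM in controls, 476 in the DSS model, 778 with mesalazine and 619 with Kuiyangling. Of the 7 tested, 6 were above the DSS model with mesalazine (median log2 difference 2.08) and 7 with Kuiyangling (0.91), none called. Apoa1 differed most, by 6.20 and 4.46. It varied widely between animals, at 140 ± 160 CPM with mesalazine and 41.9 ± 56.6 with Kuiyangling (SD, n = 2). Lct had 5 reads in controls, 10 in the DSS model, 4 with mesalazine and 3 with Kuiyangling. Sis, encoding sucrase-isomaltase, was 5.55 and 0.43 CPM in controls, 3.08 and 6.10 in the DSS model, 21.1 and 46.1 with mesalazine and 19.2 and 20.0 with Kuiyangling. Control 2, with Rbp2 at 32.8 CPM, had the lowest Sis level of the 8 libraries. Their part in the Rbp2 values was not tested.

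**Figure D3:**
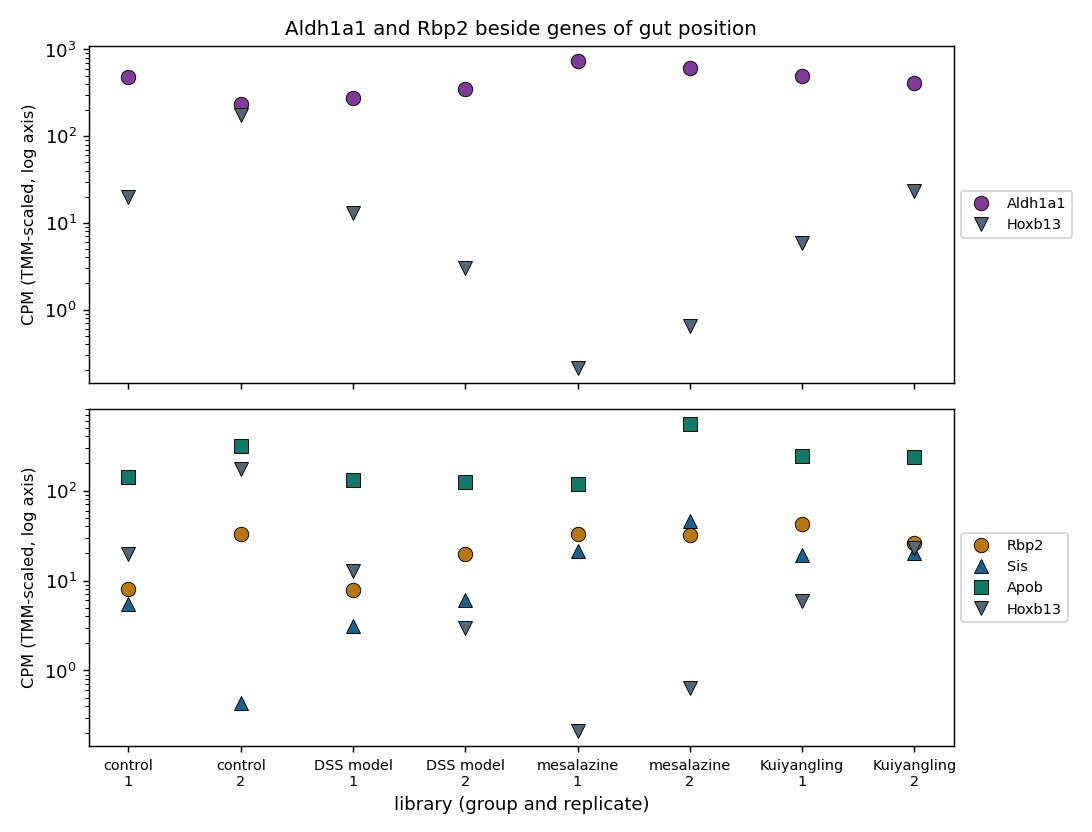
CPM on log axes in each of the 8 libraries, with Aldh1a1 and the distal colon gene Hoxb13 above and Rbp2, Hoxb13 and the enterocyte genes Sis and Apob below. Hoxb13 spans 0.212 to 175 CPM, and its 2 lowest libraries, those of the mesalazine mice, have the highest Aldh1a1.

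Stra6, the cell-surface receptor that takes up retinol from its plasma carrier, was at the limit of detection. It had 1 to 9 reads a library, 10 in all in controls and 7 in the DSS model, a ratio of 0.822 (95% exact counting interval 0.266 to 2.39). The 2 controls were the lowest and the highest of the 8 libraries, at 0.0495 and 0.555 CPM.

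Dhrs3 reduces retinal back to retinol and is itself induced by retinoic acid. It showed no difference between groups larger than the spread within them. Levels were 42.9 and 67.3 CPM in controls, 86.0 and 42.2 in the DSS model, 74.1 and 44.2 with mesalazine and 46.5 and 36.1 with Kuiyangling, and neighbouring groups in the order of means all overlapped. The 2 DSS model mice differed 2.04-fold. The log2 change was 0.22 with DSS (SE 0.40, edgeR adjusted p = 0.798) and -0.63 between Kuiyangling and the DSS model (SE 0.40, edgeR adjusted p = 0.996). The change with DSS turned to -0.38 without DSS model 1.

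Cyp26b1, which hydroxylates retinoic acid for removal, had 3 to 10 reads a library and was not tested. Controls were at 0.198 and 0.185 CPM, the DSS model at 0.629 and 0.464, mesalazine at 0.495 and 0.467 and Kuiyangling at 0.495 and 0.208. All 6 DSS-treated mice were above both controls, Kuiyangling 2 by little. Of all tested genes, 27.1% were higher than control without overlap in the DSS model, 25.9% with Kuiyangling and 23.6% with mesalazine. The summed reads, 17 against 7, gave a DSS model to control ratio of 2.85 (95% exact counting interval 1.12 to 8.14). The ratio to control was 2.50 with mesalazine (0.958 to 7.23) and 1.76 with Kuiyangling (0.640 to 5.28), intervals that include no difference. Its relatives Cyp26a1 and Cyp26c1 were not analysed here.

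Rara, the retinoic acid receptor of most tissues, showed no difference between groups larger than the spread between animals. It ran from 18.3 CPM in mesalazine 1 to 30.7 CPM in DSS model 1, and the groups overlapped throughout. The log2 change with DSS was 0.12 (SE 0.32, edgeR adjusted p = 0.866), that between Kuiyangling and the DSS model -0.03 (SE 0.32, edgeR adjusted p = 0.999), and that between mesalazine and the DSS model -0.31 (SE 0.32, unadjusted p = 0.361). The first and second of these changed sign on the FPKM scale, to -0.057 and 0.12.

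Rarb, the receptor whose upstream sequence is shown above, had 0 to 3 reads a library and too few for any comparison. There were 4 reads in controls, 3 in the DSS model, 0 with mesalazine and 4 with Kuiyangling. No fold is given, since a floor of 3 reads is not far below any of them. In GENCODE M21, 34.1% of the exon bases of Rarb lie opposite exons of Top2b, and whether counting used strand is not given in the sources used here.

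**Figure D4:**
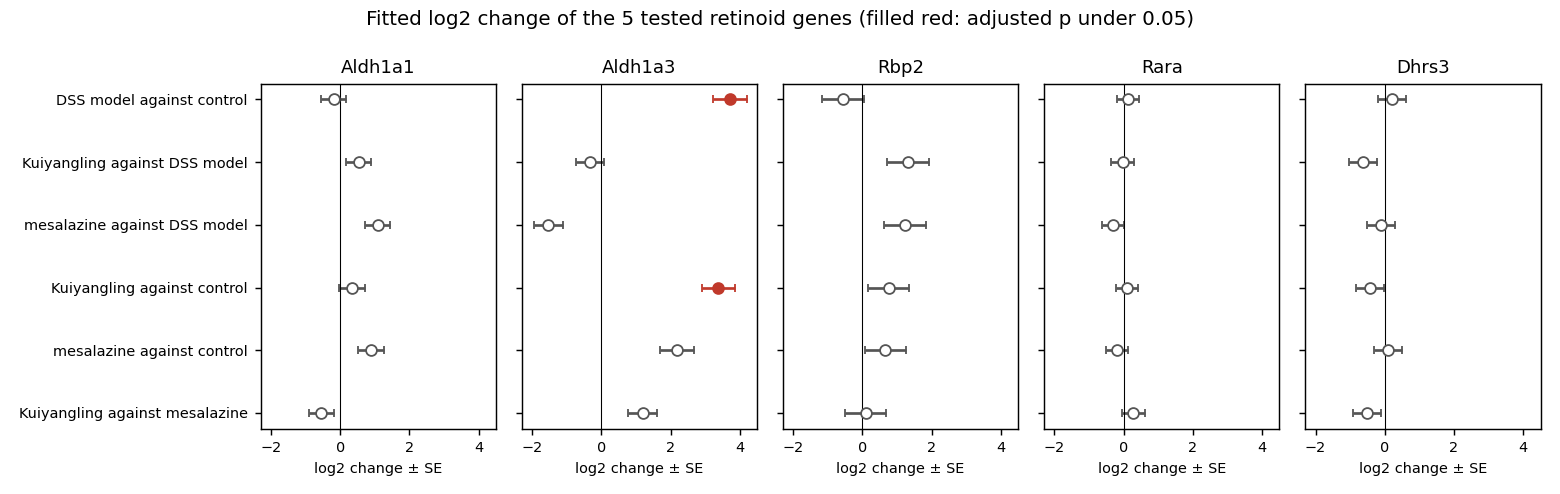
Fitted log2 change with its standard error for the 5 tested retinoid genes in the 6 comparisons, filled red where the edgeR adjusted p is under 0.05. Aldh1a3 is filled against control for the DSS model (3.71) and Kuiyangling (3.38), and no other point is filled.

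Among the wider list of 64 genes of retinoid uptake, conversion, reception and response, chosen with earlier results of these data known, 49 were tested. In the DSS model against control, 2 of the 49 were called, both higher: Aldh1a3 and Tgm2, where 0.247% of all genes were called and 0.194% were called higher. The same 2 were called for Kuiyangling against control, where all genes gave 0.239%, and none in the other 4 comparisons. Unadjusted p-values under 0.05 were found for 8 of the 49 with DSS, against 14.8% of all genes. Against the DSS model they were found for 5 of the 49 with Kuiyangling, where all genes gave 3.56%, and for 7 of the 49 with mesalazine, where all genes gave 5.49%. DESeq2 called none of the 49 in those last comparisons. The median log2 change with DSS was 0.05 over the 49 and -0.04 over all genes.

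Tgm2 encodes tissue transglutaminase and is a known retinoic acid target that many inflammatory signals also induce. It was 28.3 and 23.6 CPM in controls, 169 and 189 in the DSS model, 80.1 and 78.9 with mesalazine and 125 and 72.2 with Kuiyangling. As with Aldh1a3 in CPM, every DSS-treated mouse was above both controls and every treated mouse was below both DSS model mice. For Aldh1a3 this did not hold in FPKM, where Kuiyangling 1 was above DSS model 1. Separation between 2 groups was common. Of all tested genes, 27.1% were higher without overlap in the DSS model than in control. Against the DSS model, 21.1% were lower without overlap with Kuiyangling and 13.8% with mesalazine. The share of genes with the whole pattern was not counted. Tgm2 was 2.78 higher with DSS (SE 0.32, edgeR adjusted p = 0.0119) and 1.93 higher with Kuiyangling than in control (SE 0.31, edgeR adjusted p = 0.0479), while mesalazine gave 1.61 (SE 0.31, edgeR adjusted p = 0.0526). The first was lost without control 2 (edgeR adjusted p = 0.127) or DSS model 2 (0.0663). The second was lost when any of 6 libraries was left out: control 1 (edgeR adjusted p = 0.0622) or 2 (0.332), DSS model 1 (0.0978) or 2 (0.0967), and Kuiyangling 1 (0.361) or 2 (0.0688). The mesalazine difference was called without mesalazine 2 (edgeR adjusted p = 0.0154) and by DESeq2 (adjusted p = 0.000209). Against the DSS model, Tgm2 differed by -0.86 with Kuiyangling (SE 0.30, edgeR adjusted p = 0.996) and by -1.17 with mesalazine (SE 0.31, edgeR adjusted p = 0.523), neither called.

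Of the other uptake and storage genes, 13 were tested with Rbp2 among them, and none was called with DSS in the main edgeR fit. Lrat had the lowest log2 change, -1.63. Lrat, which esterifies retinol for storage, was 9.98 ± 6.35 CPM in controls and 3.23 ± 0.0624 in the DSS model (edgeR adjusted p = 0.244). Isx, a transcription factor induced by retinoic acid in enterocytes, was 87.0 and 32.7 CPM in controls and 226 and 146 in the DSS model (log2 change 1.64, SE 0.48, edgeR adjusted p = 0.186). DESeq2 (adjusted p = 0.0159) and edgeR without a filter on low counts (adjusted p = 0.0176) did call Isx with DSS. Stra6l, a relative of Stra6, was 0.86 above the DSS model with Kuiyangling (unadjusted p = 0.0154, edgeR adjusted p = 0.996) and 1.07 above it with mesalazine (unadjusted p = 0.00482, edgeR adjusted p = 0.530).

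The 13 tested genes that interconvert retinol and retinal had log2 changes with DSS between -0.95 for Adh1 and 0.95 for Rdh1, 10 above 0 and 3 below, with a median of 0.44 and none called. Rdh1, a retinol dehydrogenase, was 1.26 lower with Kuiyangling than in the DSS model on the log2 scale (-1.26, SE 0.44, unadjusted p = 0.0161, edgeR adjusted p = 0.996). Adh5, an alcohol dehydrogenase, was 0.79 above the DSS model with mesalazine (unadjusted p = 0.0347, edgeR adjusted p = 0.820). The 10 tested receptors and coregulators lay between -0.82 for Ncoa2 and 0.48 for Rarg, 2 above 0 and 8 below, with a median of -0.39 and none called. Rxra, the partner of the retinoic acid receptors, was at 145 ± 10.6 CPM in controls and 144 ± 11.4 in the DSS model (SD, n = 2). The 14 tested responsive genes lay between -1.81 for Ccr9 and 2.78 for Tgm2, 9 above 0 and 5 below, with a median of 0.43 and 1 called. Between Kuiyangling and mesalazine the smallest unadjusted p-values of the wider list were those of Scarb1, a carotenoid and lipoprotein receptor (log2 difference 0.68, edgeR adjusted p = 0.999), Rdh12 (-1.66, 0.999) and Bhlhe40 (0.71, 0.999), none called.

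**Figure D5:**
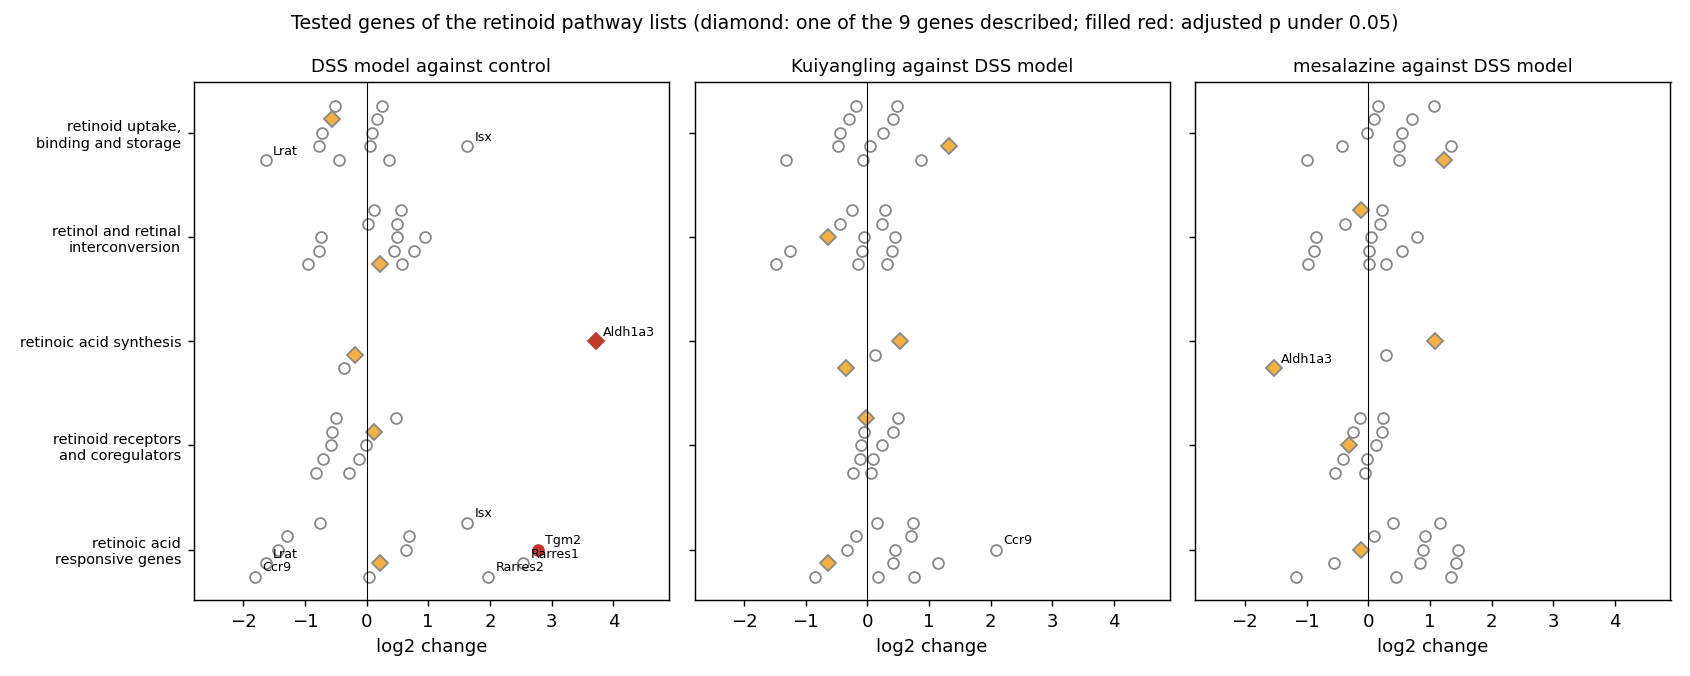
Log2 change of the tested genes of the retinoid lists in 3 comparisons, 1 gene left out, 1 row per role, with diamonds for the described genes and filled red for an edgeR adjusted p under 0.05; a gene listed under more than 1 role is drawn in each. Aldh1a3 and Tgm2 are the filled points, both in the DSS model against control, at 3.71 and 2.78.

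The genes whose log2 CPM followed each tested gene most closely over the 8 libraries were found among 11955 candidates. For Aldh1a3 they were Cxcl5, a neutrophil chemokine (r = 0.983), Sod3, an extracellular superoxide dismutase (0.973), and Prex1 (0.964). For Aldh1a1 they were Gsdme (0.970), Agmo (0.949) and Zfp639 (0.948), and for Rbp2 they were Gimap7 (0.941), Vsir (0.937) and Cd3eap (0.933). For Rara they were Snx19 (0.970), Wbp2 (0.960) and Tmc4 (0.956), and for Dhrs3 they were Atp9a (0.943), Pllp (0.937) and Lemd2 (0.936). These are descriptions over 8 libraries that share groups and composition. The tested retinoid genes did not follow each other: r was -0.01 between Aldh1a1 and Aldh1a3, 0.30 between Aldh1a1 and Rbp2, and -0.58 between Aldh1a1 and Rara, the pair farthest from 0.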

How the data were processed

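Per the labels' protocols, the mirVana kit gave total RNA of integrity number 7 or above, and libraries were of the TruSeq stranded mRNA kind. The deposited counts are whole reads per gene, and the submitters' processing notes name HISAT2 and Trimmomatic among the authors' tools. Build, annotation, counter and strand setting are not given in the sources used here. The deposited FPKM values equal the count over 1 length per gene and the library total for all 17353 genes, within 0.001. The second mesalazine column has its own spelling and was matched through the sample's label.

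The filterByExpr function of edgeR 4.0.16 (R 4.3.3) kept 13381 genes, and quasi-likelihood F tests with TMM scaling were run on them in 1 fit of the 8 libraries (common biological coefficient of variation 0.287), Benjamini-Hochberg adjusted over all of them, in 6 comparisons. The fit was tested on simulated data. Alternatives were RLE scaling, no filter, DESeq2 1.42.0, limma 3.58.1 on log2(FPKM + 0.1) or + 1, only the groups compared, a replicate block, leaving out each library, and, chosen after seeing the data, a gene length correction, because the libraries differed in how their levels depended on gene length. Ratios of low counts have exact binomial intervals, and a floor of 3 counts applies. Replicates differed by more than sampling noise.

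The 9 genes and all lists were chosen with earlier results of these data known. Named were the 9 genes, the called pathway genes or the 3 of smallest p, the extremes of each role group (1 listed gene, included in the counts, is not reported here), and the 3 genes of highest Pearson r of log2 CPM (prior count 2) with a mean of at least 1 CPM. Rxra, Isx, Itga4 and Aldh1a7 were named after their values were seen.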

Additional observations from a re-analysis of the deposited data

How the results depend on the processing

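The number of genes called depended strongly on the test. Without a filter on low counts, edgeR called 487 genes with DSS (33 as reported), 451 with Kuiyangling against control (32) and 1090 with mesalazine against control (90), and 11, 104 and 3 where 0 were reported (Kuiyangling and mesalazine against the DSS model, and Kuiyangling against mesalazine). DESeq2 called 435, 349 and 982 against control, and 13 and 91 against the DSS model. Limma on log2(FPKM + 1) called 19, 7 and 11 against control, limma on log2(FPKM + 0.1) without a filter 16, 6 and 18, and with the filter 57 for mesalazine. With only the 2 groups compared, 19 genes were called for Kuiyangling and 315 for mesalazine against control, and 21 for Kuiyangling against the DSS model. Leaving out 1 library, which leaves a group of 1 that is assumed to vary like the others, gave 1 to 159 calls with DSS, 1 to 171 with Kuiyangling and 1 to 2717 with mesalazine against control.

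The 1 retinoid gene called with DSS, Aldh1a3, became 0 under limma on log2(FPKM + 0.1) without a filter, and 0 to 1 when leaving out 1 library. For Kuiyangling against control it became 0 under limma on log2(FPKM + 1), under limma without a filter and with only the 2 groups, and 0 to 1 when leaving out 1 library. For mesalazine against control, 0 became 1 without a filter and with DESeq2, and 0 to 1 when leaving out 1 library. Other pathway genes called with DSS were 1 as reported, 3 without a filter and with DESeq2, and 0 to 1 when leaving out 1 library. With Kuiyangling against control they were 1 as reported, 4 without a filter, 3 with DESeq2, 0 under the 3 limma fits and with only the 2 groups, and 0 to 1 when leaving out 1 library. With mesalazine against control they were 0 as reported, 7 without a filter and with DESeq2, 3 with only the 2 groups, 1 with the gene length correction, and 0 to 13 when leaving out 1 library (13 without mesalazine 2). The causes were not tested.

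Replicate numbers were shared by the groups, but nothing says that they pair animals, and same-numbered animals did not deviate together (correlations of -0.31 to 0.16). With the replicate block, 50 genes were called with DSS and 65 with Kuiyangling against control, and 1 other pathway gene with mesalazine against control.

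Only values that did not pass the test changed sign. On the limma scales (FPKM + 0.1, FPKM + 1, and + 0.1 without a filter), Rara was -0.057, -0.046 and -0.057 with DSS and 0.12, 0.10 and 0.12 for Kuiyangling against the DSS model, and Dhrs3 was -0.10 in all 3 for mesalazine against control. The median of all genes moved on these scales, by up to -0.20 for mesalazine against control and -0.18 with DSS. Rbp2 was -0.10 for mesalazine against control with the length correction. Leaving out 1 library gave, with DSS, -0.62 to 0.42 for Aldh1a1, -1.38 to 0.78 for Rbp2, -0.22 to 0.40 for Rara and -0.38 to 0.65 for Dhrs3. Against the DSS model it gave -0.32 to 0.32 for Rara with Kuiyangling, and with mesalazine -0.59 to 0.032 for Rara, -0.54 to 0.49 for Dhrs3 and -0.14 to 2.39 for Rarres1. Against control it gave, with Kuiyangling, -0.091 to 0.95 for Aldh1a1, -0.19 to 0.36 for Rara and -2.42 to 0.18 for Itgb7, and with mesalazine -0.042 to 2.004 for Rbp2, -0.43 to 0.076 for Rara and -0.32 to 0.46 for Dhrs3. Between Kuiyangling and mesalazine it gave -0.33 to 0.41 for Rbp2 and -0.011 to 0.51 for Rara. Depth limited Aldh1a2, Cyp26b1, Stra6 and Rarb, with at most 13 reads in any library.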

Other observations

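Retinoic acid induces gut-homing receptors on lymphocytes, and these receptors were low in the mucosa. Ccr9, the chemokine receptor that directs lymphocytes to the small intestine, averaged 0.593 ± 0.208 CPM in controls, 0.162 ± 0.052 in the DSS model, 0.446 ± 0.030 with mesalazine and 0.709 ± 0.048 with Kuiyangling (SD, n = 2), on 21, 5, 14 and 25 reads. Both DSS model mice were below all other mice. Of all tested genes, 26.3% were lower without overlap in the DSS model than in control. Against the DSS model, 21.9% were higher without overlap with Kuiyangling and 14.0% with mesalazine. The log2 change was -1.81 with DSS (SE 0.74, edgeR adjusted p = 0.301) and 2.08 between Kuiyangling and the DSS model (SE 0.73, unadjusted p = 0.0169, edgeR adjusted p = 0.996), and neither was called. Itga4 and Itgb7, the 2 chains of the gut-homing integrin, gave log2 differences of -1.43 (SE 0.69, edgeR adjusted p = 0.355) and -1.29 (SE 0.75, edgeR adjusted p = 0.419) with DSS, and neither was called. Control 2 carried these values: Itgb7 was 1.59 CPM in control 1 and 9.62 in control 2, against 1.57 and 2.98 in the DSS model, and Itga4 was 2.03 and 6.91 CPM in the controls, against 1.82 and 1.46. The 7 of 8 T and NK cell markers in the table summed to 14.0 and 55.2 CPM in the 2 controls and 12.5 and 24.1 CPM in the DSS model, and their part in these values was not tested.

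Rarres1 and Rarres2, named as retinoic acid receptor responders, differed from control by 2.54 and 1.97 with DSS, 3.995 and 3.14 with mesalazine and 2.71 and 2.67 with Kuiyangling on the log2 scale, with edgeR adjusted p-values from 0.0936 to 0.449. All 6 values, which share the same control mice, lay above 0, and the main edgeR fit called none. Rarres1 had 3 reads in all in controls, at the floor, and 16 in the DSS model, 42 with mesalazine and 20 with Kuiyangling. The 2 mesalazine mice differed widely, at 1.44 ± 1.37 CPM for Rarres1 and 12.6 ± 11.3 CPM for Rarres2 (SD, n = 2). DESeq2 called Rarres2 with Kuiyangling (adjusted p = 0.00565) and mesalazine (adjusted p = 0.000298) and Rarres1 with mesalazine (adjusted p = 0.0356). So did edgeR without a filter on low counts (edgeR adjusted p = 0.00502, 0.000622 and 0.0209). With only the 2 groups compared, edgeR called Rarres2 with mesalazine (adjusted p = 0.0135). Without mesalazine 2, edgeR called both there, at log2 changes of 3.85 for Rarres2 and 4.75 for Rarres1. Leaving out 1 library at a time gave 1.68 to 3.85 for Rarres2 and 2.41 to 4.75 for Rarres1 in that comparison.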
